A study of Mus musculus with 26 samples.

Results

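The miRNA repertoire of the hippocampal CA1 region was described from 8 of the 9 small RNA libraries of wild type mice that drank vehicle. CA1 is a field of the hippocampus whose pyramidal neurons take part in the formation of memory. The 8 libraries were the wild type vehicle libraries with at least 1000000 (1 M) miRNA counts, numbered 2 to 9 after their labels. They were 8 of the 26 libraries of a series on CamkdeltaC transgenic mice, which also holds transgenic mice given vehicle or Vorinostat, a histone deacetylase inhibitor. The wild type animals were littermates of the transgenic mice, carried no listed transgene, started on vehicle in the drinking water at 2 months of age and were 3 months old after 4 weeks. Both sexes were used. The labels separate these libraries by number only, and each p-value reflects only how far the libraries differ from one another, where animal, dissection and library preparation cannot be told apart.

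MicroRNAs are RNAs of about the length of the sequences printed here that guide Argonaute proteins to messenger RNAs, mainly through the seed, bases 2 to 8 from the 5′ end. A hairpin precursor is cut by Drosha and Dicer into a 5p and a 3p arm, and usually the strand of only 1 arm is kept in Argonaute in quantity. Neurons are known for high levels of miR-9, miR-124, miR-128 and let-7, and for the miRNAs of the imprinted Dlk1-Dio3 region on mouse chromosome 12, which are made from the maternal chromosome.

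The mature sequences of the leading miRNAs are printed first, since they decide the grouping by seed that follows. They come from RefSeq (GRCm38.p6), 5′ to 3′, with the seed in capitals. The 5 that mark the repertoire come first, then other leading miRNAs with seeds of their own.
miR-128-3p: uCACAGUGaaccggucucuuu
miR-9-5p: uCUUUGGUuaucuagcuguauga
miR-99a-5p: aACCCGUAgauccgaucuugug
miR-26a-5p: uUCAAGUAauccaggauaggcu
miR-127-3p: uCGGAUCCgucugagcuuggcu
miR-218-5p: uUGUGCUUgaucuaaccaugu
miR-7a-5p: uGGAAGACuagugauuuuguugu
miR-125b-5p: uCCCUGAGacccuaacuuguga
miR-148a-3p: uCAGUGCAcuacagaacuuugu
miR-181a-5p: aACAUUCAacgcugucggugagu
miR-129-5p: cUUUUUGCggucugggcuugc

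Depth and the order of libraries bear on all values. The 8 libraries held 12.1 ± 2.85 M miRNA counts (SD, n = 8), from 9.12 M in library 5 to 17.6 M in library 4. Library 1 held 0.584 M and was left out. Of the 171 miRNAs with a mean of at least 100 CPM over the 8 (CPM, a miRNA's counts per 1000000 counts of its library), 141 lay outside their range in library 1, where miR-127-3p led at 18.3%. Libraries 2, 7 and 8 stood apart from the other 5. In a principal component analysis of 171 miRNAs, component 1 held 77.2% of the variance, and these libraries scored 5.84, 6.34 and 5.22 against −4.40 to −1.49 for libraries 3, 4, 5, 6 and 9. Library 2 came from lane L001 of the column names, as did libraries 3 to 6, and libraries 7 and 8 came from lane L002, as did library 9. Both lanes thus hold libraries on both sides.

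Tissue identity was checked with marker lists. All 14 miRNAs of the neuron list had a mean of at least 100 CPM, as did 171 of all 1221 miRNAs with a read. Together the 14 gave 589953 to 644601 CPM per library. This list contains the 5 miRNAs by which the repertoire was labelled, and they made up most of its mean sum of 628770 CPM. They were miR-128-3p (226114 CPM), miR-9-5p (130523 CPM), miR-99a-5p (71745.5 CPM), miR-26a-5p (66310.5 CPM) and miR-127-3p (41233.5 CPM). The sum was thus largely set by that labelling and is no separate check of tissue identity. Some members such as miR-26a-5p and miR-99a-5p are also abundant in many tissues. The vessel list (both arms of miR-126a, miR-143-3p and miR-145a-5p) summed to 6823 to 12246 CPM, and miR-126a-3p, an endothelial miRNA, ranked 24 at 6076 ± 1049 CPM (SD, n = 8). Oligodendrocyte miRNAs summed to 1113 to 1495 CPM, led by miR-219a-2-3p at 853 ± 201 CPM and miR-338-5p at 282 ± 35.7 CPM. In the same list miR-338-3p gave 143 CPM and miR-219a-5p only 2.50 CPM, and miR-219b-5p had no read. Erythrocyte miRNAs summed to 562 to 813 CPM, the choroid plexus and ependyma list to 592 to 823 CPM, and the microglia and leukocyte list to 398 to 543 CPM. Most of the last came from miR-146a-5p at 350 CPM, followed by miR-150-5p at 89.2 CPM and miR-142a-5p at 22.9 CPM, while miR-223-3p, typical of myeloid cells, gave 0.392 CPM. The heart and skeletal muscle list summed to 374 to 512 CPM, of which miR-1a-3p gave 413 ± 49.1 CPM (SD, n = 8), and the cardiac miR-208a-3p and miR-208b-3p had no read. Listed for hindbrain and posterior Hox clusters, miR-196a-5p and miR-196b-5p also had no read, while miR-10a-5p gave 26.9 CPM and miR-10b-5p 4.12 CPM, and the list summed to 15.2 to 53.2 CPM. The miR-183 cluster list summed to 56.4 to 199 CPM, and the list for liver, islet and stem cells to 28.5 to 47.7 CPM. A count of 0 among the 96.8 M counts of the 8 libraries allows up to 0.0310 CPM (3 counts). In bulk tissue, fewer cells of a type and less RNA per cell cannot be told apart. Of the 10 lists, 2 had their 3 highest sums in libraries 2, 7 and 8: the vessel list (10540, 12246 and 11467 CPM, against 6823 to 9342 CPM in the other 5) and the liver, islet and stem cell list (45.5, 47.7 and 38.2 CPM, against 28.5 to 37.0 CPM). Not all members followed the sums. miR-126a-5p gave 28.4, 34.8 and 35.6 CPM in libraries 2, 7 and 8 and 57.9 to 80.3 CPM in the other 5. miR-145a-5p was highest in libraries 3 and 4, and miR-122-5p in libraries 3 and 9. The vessel sum came mostly from miR-126a-3p and miR-143-3p, and the other sum from miR-375-3p. Among the 171 miRNAs with at least 100 CPM, libraries 2, 7 and 8 were the 3 highest for 48 (28.1%). Having 2 of 10 lists in this order is no more than that share. The part of the 2 lists in what sets these libraries apart was not tested.

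A few miRNAs made up most of the repertoire. In each library 4 or 5 miRNAs gave 50% of the counts, 32 to 36 gave 90% and 137 to 153 gave 99%. The 17 miRNAs with a mean of at least 1% of the counts held 80.6% of them. The long tail was wide but thin. Of 1915 entries in the count table, 677 had no read in the 8 libraries, and 33 entries with identical counts in every library of the series were joined into 15 measurements. This left 1221 miRNAs with a read in at least 1 library and 649 with a read in each. At least 1 CPM in each library was reached by 454, at least 10 CPM by 293 and at least 100 CPM by 148. All miRNAs with a mean under 10 CPM held 0.0900% of the counts together.

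Each library detected 887 ± 34.2 miRNAs (SD, n = 8; range 844 to 956). At the equal depth of the shallowest library the number was 863 ± 15.1. The number detected rose with depth (Pearson r = 0.92, exact permutation p = 8.68e-04, adjusted p = 0.00608 over 7 relations; Spearman rho = 0.83, exact permutation p = 0.0154, adjusted p = 0.108; n = 8 libraries). Without libraries 4 and 5, the farthest from the median depth, r was 0.76 and the relation did not pass (adjusted exact permutation p = 0.418, n = 6), over a narrower range of depth and fewer libraries. The other 6 relations of that family, of depth with the number detected at equal depth and with the shares of miR-128-3p, miR-9-5p, miR-99a-5p, miR-26a-5p and miR-127-3p, did not pass, with r from −0.58 to 0.63 and adjusted exact permutation p from 0.247 to 0.682. No relation was computed within a lane, since the lanes hold 5 and 3 of the libraries.

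miR-128-3p, a brain miRNA that restrains neuronal excitability, was the most abundant by share of counts in all 8 libraries. Its share of the counts was 24.1% in library 2, 19.04% in library 3, 19.4% in library 4, 27.1% in library 5, 20.8% in library 6, 23.9% in library 7, 24.4% in library 8 and 22.1% in library 9, with a mean of 22.6% ± 2.76 (SD, n = 8). The lowest library was thus still above every share of any other miRNA. The authors' normalized log2 values, whose normalization is not given, reverse this order, with miR-9-5p above miR-128-3p in all 8 libraries. They were 18.24 against 17.11 in library 3 and 17.61 against 17.49 in library 9. The order below changes in those values too. miR-30a-5p, at rank 28 by share, stood at 15.76 to 16.59 there. It lay above let-7f-5p, miR-127-3p and miR-218-5p in all 8 libraries. miR-185-5p, at rank 61 by share, stood at 14.67 to 16.16. miR-9-5p, a regulator of neural progenitors and neuronal differentiation, was second in each library at 11.04% to 15.3% with a median of 12.4% (mean 13.1% ± 1.72). miR-99a-5p, of the miR-99/100 family, was at rank 3 or 4 with 5.53% to 8.17%, median 7.5%, and miR-26a-5p, a broadly expressed miRNA, at rank 3 to 5 with 4.88% to 7.79%, median 7.03%. Their ranges overlap almost entirely, and miR-99a-5p was the higher in 5 of 8 libraries.

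miR-127-3p, of the chromosome 12 imprinted region, moved most among the 5 markers. It took 5.64% of the counts in library 2, 3.87% in library 3, 3.77% in library 4, 2.47% in library 5, 2.95% in library 6, 6.06% in library 7, 5.56% in library 8 and 2.67% in library 9. By share, libraries 2, 7 and 8 were the 3 highest, and the mean of 4.12% ± 1.44 became 3.15% without them. In the authors' normalized log2 values library 8 (15.18) lay below libraries 4 (15.52) and 9 (15.24), with libraries 2 and 7 still highest. Its rank moved between 4 and 9. The other 4 markers changed by less on leaving them out: miR-128-3p to 21.7%, miR-9-5p to 13.6%, miR-99a-5p to 6.82% and miR-26a-5p to 7.41%.

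Of the other miRNAs, let-7f-5p gave 4.33% ± 0.527, a mean above that of miR-127-3p. After it came miR-218-5p, which lies in introns of the Slit genes, at 3.82% ± 0.784, and let-7c-5p at 3.58% ± 0.390 (SD, n = 8 for each mean). miR-7a-5p, the miRNA bound by the circular RNA Cdr1as in brain, gave 2.54% ± 0.707 and miR-125b-5p gave 2.07% ± 0.649. Next stood let-7i-5p at 1.98%, let-7a-5p at 1.73%, miR-148a-3p at 1.54%, miR-30d-5p at 1.53%, let-7g-5p at 1.53%, miR-181a-5p at 1.21% and miR-129-5p at 1.19%. The 20 most abundant ended with miR-9-3p at 0.802%, miR-124-3p at 0.766% and miR-381-3p at 0.670%. miR-124-3p, commonly used as the defining neuronal miRNA, ranked 19, and its share ran from 0.419% to 1.31% with ranks from 16 to 31. It was lowest in libraries 7, 2 and 8 and averaged 0.965% without them.

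In the order by share of counts, 3 of 19 steps between neighbours passed a test. Each pair of neighbours among the 20 was compared within libraries by a two-sided exact sign-flip permutation test of log2 ratios, adjusted over 19 pairs. The order comes from these same values, so the test says only which steps exceed the spread. With 8 libraries the smallest p it can give is 0.00781, reached only where all 8 have the same direction. A step that missed the threshold is therefore not shown to be absent. Passing were miR-128-3p over miR-9-5p (mean log2 ratio 0.79 ± 0.36), miR-9-5p over miR-99a-5p (0.86 ± 0.23) and miR-26a-5p over let-7f-5p (0.60 ± 0.19), each higher in 8 of 8 libraries with an adjusted exact p of 0.0495. For let-7c-5p over miR-7a-5p and let-7g-5p over miR-181a-5p, each higher in 7 of 8 libraries, the adjusted exact p was 0.0594. The other 14 steps did not exceed the spread, with adjusted exact p from 0.594 to 0.977.

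**Figure D1:**
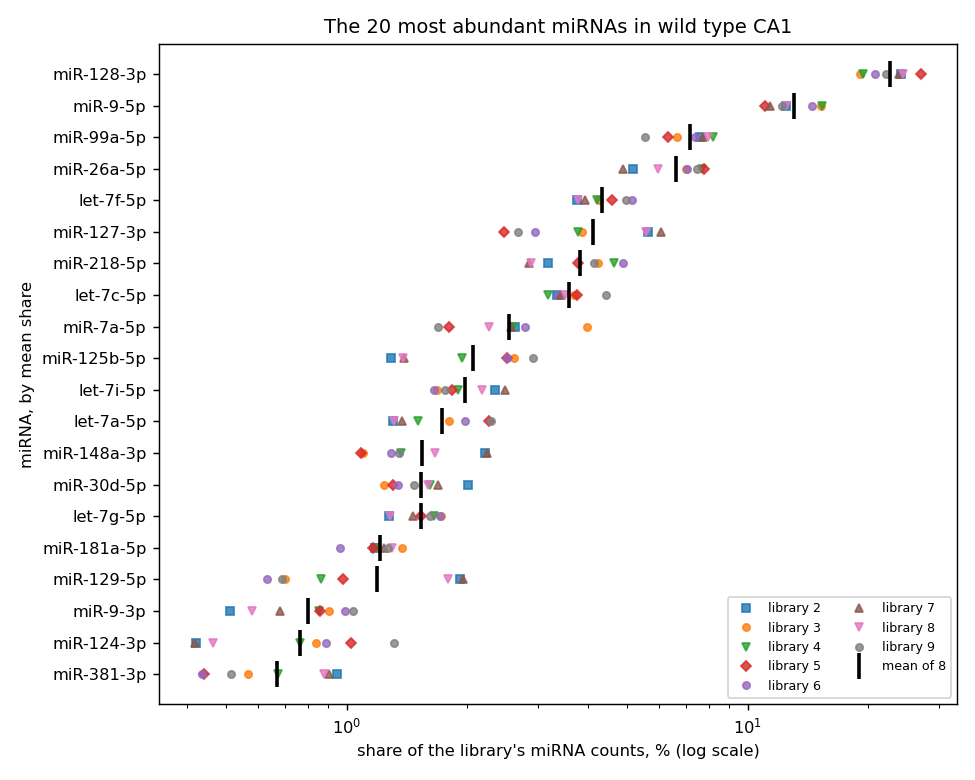
Share of each library's miRNA counts (log axis, %) for the 20 miRNAs with the highest mean share, with 1 point per library and a bar at the mean of 8. miR-128-3p at 22.6% and miR-9-5p at 13.1% stand clear of the rest, while the points of most lower neighbours overlap, and libraries 2, 7 and 8 sit together at 1 end for miR-127-3p, miR-129-5p and miR-124-3p.

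Grouped by seed, 3 families gave 50% of the counts with a known sequence. RefSeq sequences were matched to 1043 of the miRNAs with reads, which hold 95.6% of the counts, and miR-30d-5p, miR-124-3p, miR-328-3p, miR-143-3p and miR-151-3p are among those unmatched. A family with an unmatched member is larger than given here, and its place in the order may differ. The matched miRNAs fell into 898 seed families, 800 of them with a single member, and 17 families gave 90%. The 10 leading families together held 79.5% ± 1.09 of the counts (range 78.2% to 81.0%). The miR-128 seed, with 1 member, led at 22.6%. The let-7 and miR-98 seed, known for repressing growth and stem cell genes, was second at 14.2% ± 1.38, from 12.8% in the lowest library to 16.7% in the highest with a median of 13.9%. The miR-9-5p seed followed at 13.1%.

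The let-7 family was the most shared seed among the leaders. It had 11 members with reads, 9 of them with a mean of at least 10 CPM. Their sequences are shown because all 9 carry the same seed and differ outside it, in a few bases only.
let-7f-5p: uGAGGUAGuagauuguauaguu
let-7c-5p: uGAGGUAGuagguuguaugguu
let-7i-5p: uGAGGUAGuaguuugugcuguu
let-7a-5p: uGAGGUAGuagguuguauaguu
let-7g-5p: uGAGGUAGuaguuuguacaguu
let-7b-5p: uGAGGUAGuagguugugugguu
let-7d-5p: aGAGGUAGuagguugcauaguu
let-7e-5p: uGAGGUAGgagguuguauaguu
miR-98-5p: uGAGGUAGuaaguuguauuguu

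Substitutions are given against let-7f-5p, whose base stands first, with positions counted from 1 at the 5′ end. let-7a-5p differs only by A12G, and let-7c-5p by A12G and A19G, so the split of counts among these members depends on how reads with errors were assigned, a step not given in the sources used here. let-7i-5p differs by A12U, A17G, U18C and A19U. let-7f-5p gave 30.4% of the family, let-7c-5p 25.2%, let-7i-5p 13.9%, let-7a-5p 12.1%, let-7g-5p 10.7%, let-7b-5p 4.03%, let-7d-5p 2.08%, let-7e-5p 1.24% and miR-98-5p 0.291%. let-7i-5p varied most as a share of the family (SD 3.33 percentage points, against 1.69 for let-7f-5p), and its share of all counts was 2.35%, 2.48% and 2.17% in libraries 2, 7 and 8 and 1.65% to 1.89% in the other 5.

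In the other leading families with several matched members, 1 member gave most of the counts. miR-99a-5p gave 91.2% of its family of 7.86% ± 1.07, beside miR-100-5p and miR-99b-5p. miR-26a-5p gave 98.6% of its family, beside miR-26b-5p. Each of these partners carries the same seed.
miR-100-5p: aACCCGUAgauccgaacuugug
miR-99b-5p: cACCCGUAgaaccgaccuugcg
miR-26b-5p: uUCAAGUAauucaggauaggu
miR-7b-5p: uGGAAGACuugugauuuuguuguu
miR-125a-5p: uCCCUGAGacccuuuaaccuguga
miR-7a-5p gave 88.0% of a family of 2.88% ± 0.775, with miR-7b-5p giving 12.04%. The miR-125 family held 2.58% ± 0.854, split between miR-125b-5p at 80.0% and miR-125a-5p at 19.99%, and it rose to 3.14% without libraries 2, 7 and 8. miR-148a-3p gave 94.3% of the family it shares with miR-148b-3p and miR-152-3p. Among the matched miRNAs of the miR-30 seed (1.22% ± 0.259), miR-30c-5p gave 49.4% ± 12.7 and miR-30a-5p 40.1% ± 13.3. miR-30d-5p, at 1.53% of the counts, and miR-30b-5p, at 0.00935%, had no matched sequence and are not in that sum. The size, rank and leading member of the whole miR-30 family are therefore not given.

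**Figure D2:**
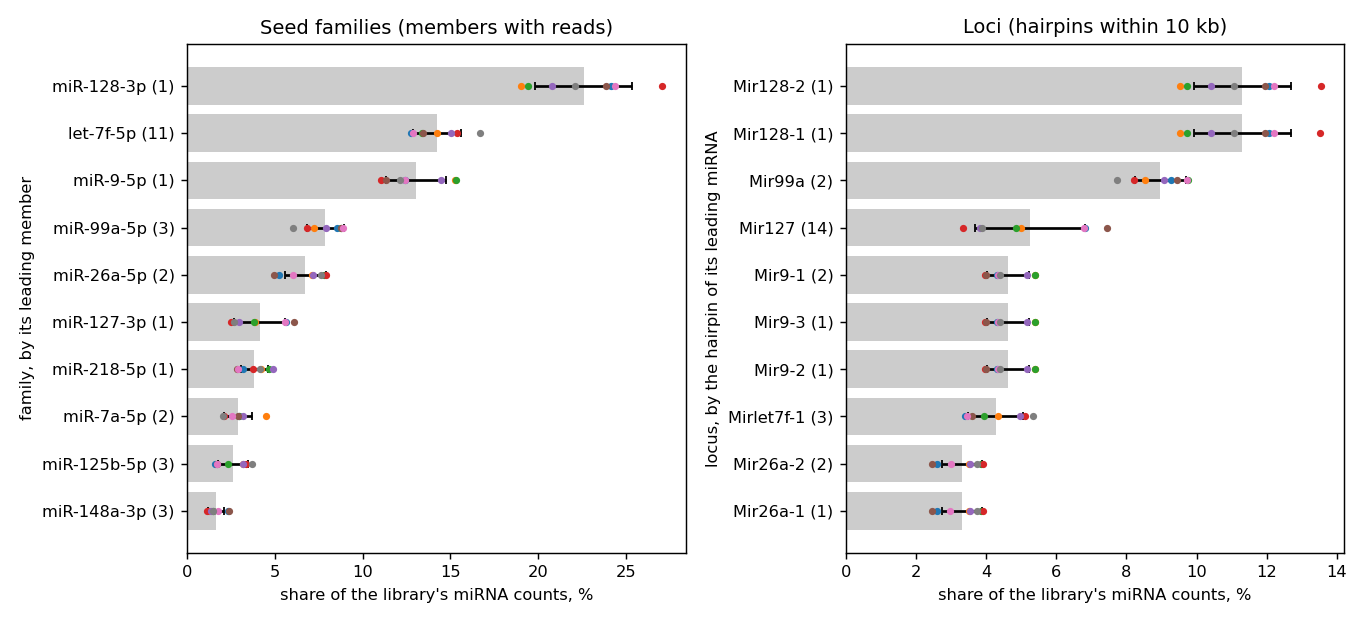
Share of each library's miRNA counts (%) by seed family (left; members with reads in brackets) and by genomic locus (right; hairpins in brackets), as bars for the mean of 8 libraries with SD and 1 point per library. The let-7 family at 14.2% is the only leading family with more than 3 matched members. The locus of Mir127 has the widest spread for its size, 5.24% ± 1.58.

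By position, the leading miRNAs came from few loci. Coordinates are those of RefSeq hairpins on GRCm38.p6, and counts of a miRNA made from several hairpins were divided equally among them, since a mature sequence does not tell its hairpin. Mir128-1 (chr1:128202361-128202430) lies in an intron of R3hdm1 and Mir128-2 (chr9:112118636-112118711) in an intron of Arpp21, which encodes a neuronal RNA-binding phosphoprotein. Each is thereby assigned 11.3% of the counts, and the same division gives Mir9-1, Mir9-2 and Mir9-3 4.62% each and Mir26a-1 and Mir26a-2 3.32% each. These values show the rule of division and not the output of each locus. Their own arms, which do tell the hairpins apart, were scarce: miR-128-2-5p gave 0.00274% and miR-128-1-5p 0.00185% of the counts.

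Mir99a (chr16:77598936-77599000) and Mirlet7c-1 (chr16:77599657-77599750) lie in an intron of the long noncoding RNA Mir99ahg. Together they gave 8.97% ± 0.735 of the counts (range 7.74% to 9.75%), 80.0% of it from miR-99a-5p. Mir125b-2 lies farther along in the same noncoding RNA, and with hairpins up to 50 kb apart joined, this locus held 10.02%. Mirlet7d, Mirlet7f-1 and Mirlet7a-1 (chr13:48536012-48538272) lie in exons of the noncoding RNA 6720427I07Rik and gave 4.27% ± 0.782. The hairpin of miR-99a is shown with its arms in capitals, since it is also among the 5 with the highest share of counts on the 5p arm.
Mir99a: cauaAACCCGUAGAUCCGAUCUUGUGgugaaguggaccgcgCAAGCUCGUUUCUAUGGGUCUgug

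The imprinted region of chromosome 12 holds many hairpins. Its first stretch (chr12:109563692-109595388, 14 hairpins, 24 miRNAs with reads) held 5.24% ± 1.58 of the counts, with 3.34% in the lowest library, a median of 4.93% and 7.43% in the highest. miR-127-3p gave 78.6% of it, miR-434-5p 11.9%, miR-434-3p 3.13% and miR-433-3p 2.38%. Without libraries 2, 7 and 8 it held 4.18%. A later stretch (chr12:109709060-109747960, 38 hairpins, 67 miRNAs with reads) held 2.43% ± 0.403. It was led by miR-381-3p with 27.6% of the stretch, miR-379-5p with 13.1%, miR-541-5p with 11.8% and miR-543-3p with 8.97%. With hairpins up to 50 kb apart joined, the region still formed 2 clusters, of 18 hairpins with 5.60% ± 1.67 and of 39 hairpins with 2.43% ± 0.403. Summed, these 57 hairpins held 8.03% ± 2.06, from 5.70% to 10.9%. The region held 10.3%, 10.9% and 10.002% of the counts in libraries 2, 7 and 8 and 5.70% to 7.47% in the other 5, without overlap. Its members did not all load the same way on component 1. Among the 9 miRNAs of the first stretch with at least 100 CPM, 5 had positive and 4 negative loadings, and among 22 of the later stretch 7 were positive and 15 negative. The hairpins of miR-127 and miR-434 both lie in the first stretch, and miR-127-3p and miR-434-5p are its leading products.
Mir127: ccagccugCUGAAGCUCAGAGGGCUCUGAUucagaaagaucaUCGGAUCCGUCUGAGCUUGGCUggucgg
Mir434: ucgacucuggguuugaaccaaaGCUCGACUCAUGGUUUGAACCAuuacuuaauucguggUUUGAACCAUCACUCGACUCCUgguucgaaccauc

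Across all loci, 72 clusters of 2 or more hairpins within 10 kb, with 245 of 1072 hairpins, gave 40.1% ± 0.857 of the counts. This value includes miRNAs divided equally among several hairpins, and with these left out it was 21.7%. By annotated context (GENCODE M21 basic genes, same strand), hairpins in introns of protein-coding genes gave 40.5% ± 2.03 of the counts and were 45.4% of hairpins. Introns of long noncoding RNAs gave 22.2% ± 1.37 of the counts from 5.50% of hairpins, and their exons 14.1% ± 1.48 from 5.41%. Hairpins outside these genes gave 15.1% ± 2.54 of the counts and were 32.5% of hairpins. The shares by context rest on the same equal division. By it, Mir9-1 and Mir9-3, both in introns of long noncoding RNAs, are assigned 4.62% each.

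Most counts came from miRNAs that start with U, the base preferred in the 5′ binding pocket of Argonaute. They gave 82.2% ± 1.67 of the counts with a sequence (range 80.0% to 84.1%), A gave 13.5% ± 0.730, C 2.77% ± 0.884 and G 1.52% ± 0.351. Counting each miRNA once, U began 450 of 1043 (43.1%). Among miRNAs with at least 100 CPM it began 76 of 151 (50.3%), and among those under 10 CPM 324 of 761 (42.6%).

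By read counts, most hairpins favoured 1 arm. How well each sequence was captured in the libraries was not measured. Arm choice and a capture difference alike in all libraries therefore cannot be told apart here. All hairpins with at least 100 counts on both arms together were tested, 291 in number, by comparing the counts of the 5p and 3p arms within libraries (edgeR quasi-likelihood test with the library as a block, Benjamini-Hochberg adjustment). The adjusted p was under 0.05 for 269 of them (92.4%), with the 5p arm higher for 138 (47.4%) and the 3p arm for 131 (45.0%). Of 119 hairpins with at least 100 CPM, 113 passed, 63 with the 5p arm and 50 with the 3p arm higher, 90 had over 90% of their counts on 1 arm and 60 over 99%. By counts, 5p arms gave 61.4% ± 3.43 and 3p arms 38.3% ± 3.42, the latter led by miR-128-3p. In 91 hairpins of this abundance with a sequence for each arm, the more abundant arm started with U in 50 and the lesser arm in 22.

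The most 1-sided hairpins had almost no read on the other arm. No read of a 5p arm was listed for miR-103 (272632 counts on the 3p arm over the 8 libraries), miR-101b (54335) or miR-107 (22622), and none of the 3p arm for miR-146a (33938 on the 5p arm). Against 3 counts over the 8 libraries, the 3p arm of miR-103 was at least 90877-fold higher, that of miR-101b at least 18112-fold and that of miR-107 at least 7541-fold, and the 5p arm of miR-146a was at least 11313-fold higher. For miR-328 there were 8 counts on the 5p arm and 638492 on the 3p arm, for miR-381 43 and 643387, for miR-21a 147786 on the 5p arm and 3 on the 3p arm, for miR-99a 7009797 and 190, for miR-218 3774028 and 152, and for let-7g 1490475 and 121. Both hairpins of miR-103 lie in introns of pantothenate kinase genes (Pank3 and Pank2). The widest spread of the log2 arm ratio by SD among all hairpins with at least 100 CPM fell on such cases (miR-381, miR-344, miR-101a, miR-341 and miR-186), where the lesser arm had few counts (16 for miR-101a, 20 for miR-344), so that counting error enters.

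Other hairpins used both arms. miR-9, both of whose arms are known as functional miRNAs, had 92.1% to 96.0% of its counts on the 5p arm, and miR-9-3p was still at rank 18. The hairpin is shown with both arms in capitals.
Mir9-2: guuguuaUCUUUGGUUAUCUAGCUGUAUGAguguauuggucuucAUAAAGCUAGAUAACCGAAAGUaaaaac
Closest to equal arms were miR-136 with 53.2% ± 8.95 (SD, n = 8) on the 5p arm, miR-380 with 53.8% ± 11.7, miR-376b with 54.2% ± 4.09, miR-335 with 43.5% ± 8.96 and miR-30e with 57.4% ± 16.8. None of these 5 passed the edgeR test (log2 5p over 3p 0.19 ± 0.20 SE, adjusted p = 0.360 for miR-136; 0.48 ± 0.31 SE, adjusted p = 0.158 for miR-30e). By raw counts, the more abundant arm differed between libraries in 6 hairpins of at least 100 CPM: these 5 and miR-195a. The authors' normalized log2 values differ for 3 of them. There the 5p arms of miR-30e and miR-335 and the 3p arm of miR-376b were the higher in all 8 libraries. In library 7 these were 12.86 against 10.40, 11.09 against 6.91 and 11.41 against 7.58. For miR-136 the higher arm still differed between libraries. For miR-30e the 5p arm held 44.1%, 29.5% and 41.3% of the counts in libraries 2, 7 and 8 and 60.3% to 74.2% in the other 5. Without those libraries its log2 ratio was 1.16 and passed the test, as did miR-136 at 0.52, while that of miR-380 turned to −0.26 without passing (adjusted p = 0.177). Without library 7 alone, the log2 ratio of miR-30e was 0.72 and passed (adjusted p = 0.0215), and with DESeq2 miR-376b passed (adjusted p = 0.0423).

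**Figure D3:**
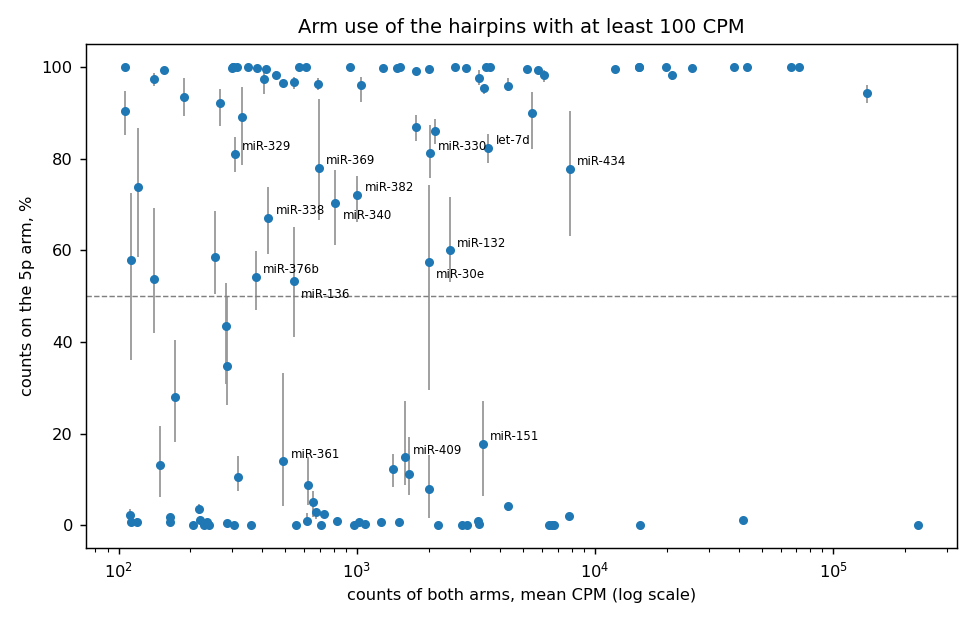
Share of counts on the 5p arm (%) against the counts of both arms (mean CPM, log axis) for the 119 hairpins with at least 100 CPM, as the mean of 8 libraries with a line from the lowest to the highest library. Most hairpins lie at the top or bottom edge (90 of 119 have over 90% on 1 arm), and long lines cross 50% for miR-30e and miR-136.

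In hairpins with a highly variable arm ratio, libraries 2, 7 and 8 stood apart as well. The 62 hairpins with a lesser arm of at least 10 CPM, a limit chosen after the values were seen, had a median SD of the log2 arm ratio of 0.49 (range 0.16 to 1.37). The 8 with the largest SD were miR-708, miR-361, miR-369, miR-379, miR-135a, miR-151, miR-30c and miR-30e. For miR-708, which lies in an intron of Tenm4, the log2 ratio of 5p over 3p counts was −5.50, −5.93 and −5.29 in libraries 2, 7 and 8 and −3.55 to −2.46 in the other 5. For miR-369, of the chromosome 12 region, it was 3.51, 3.74 and 3.17 in those libraries and 0.99 to 1.65 in the others. The groups do not overlap for either, and the direction is opposite. The 8 hairpins were chosen for their spread over these same libraries, so their separation is no independent support for the split. How many of the 62 separate was not counted. For miR-376b the ratio was 0.06, 0.31 and 0.31 in libraries 2, 7 and 8, within the −0.18 to 0.57 of the other 5. The 5 most even were miR-344d, let-7f, miR-204, miR-1843b and miR-99b, with SDs from 0.16 to 0.21. Both arms of a hairpin are cut from the same precursor, and in 10 of 26 hairpins with at least 100 CPM on each arm the arms had loadings of opposite sign on component 1. miR-434 was among them, with 90.4%, 89.3% and 88.1% of counts on the 5p arm in libraries 2, 7 and 8 against 63.2% to 80.9% in the others. The mature arms of miR-708 and the hairpin of miR-369, arms in capitals, are as follows.
miR-708-5p: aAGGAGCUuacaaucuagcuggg
miR-708-3p: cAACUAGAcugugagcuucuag
Mir369: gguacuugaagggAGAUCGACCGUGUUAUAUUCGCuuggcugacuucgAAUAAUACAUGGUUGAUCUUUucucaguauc

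**Figure D4:**
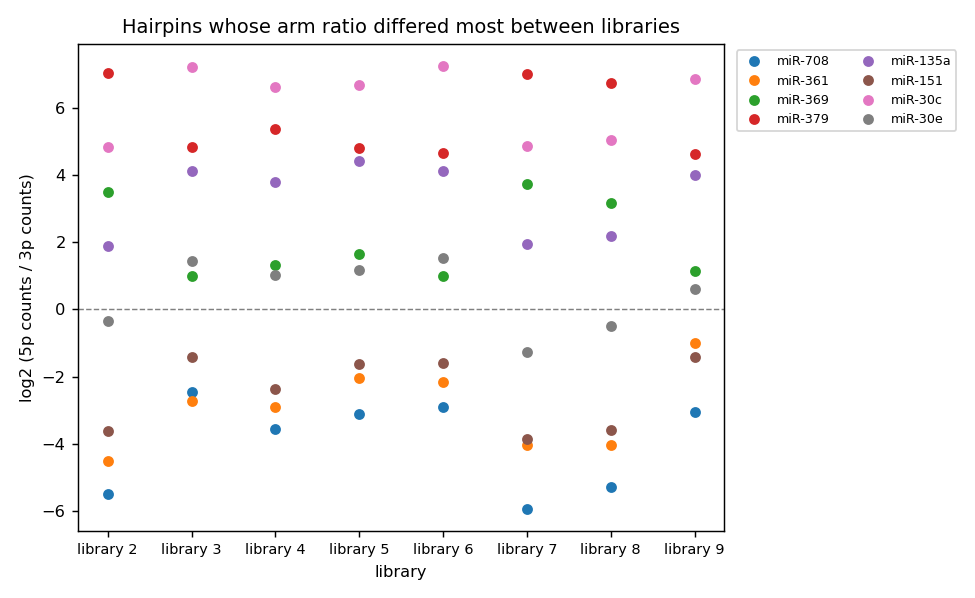
Log2 ratio of 5p to 3p counts in each library for the 8 hairpins whose ratio varied most among those with a lesser arm of at least 10 CPM. By raw counts, libraries 2, 7 and 8 sit apart in each of the 8 hairpins, which were chosen for their spread over these libraries. They are lower for miR-708 (−5.93 to −5.29 against −3.55 to −2.46) and higher for miR-369 and miR-379.

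Variation between libraries was far above counting error. Over the 171 miRNAs with at least 100 CPM the coefficient of variation (CV) of the share had a median of 24.3% (6.77% to 60.8%), while counting alone gives at most 2.84%. The CV was under 20% for 53 and over 50% for 7. Without libraries 2, 7 and 8 the median was 15.4%. The steadiest were let-7j at 6.77%, miR-181b-5p at 7.66%, miR-411-5p at 8.93%, miR-543-3p at 9.66% and miR-24-3p at 9.90%. The most variable was miR-369-3p at 60.8%, with 0.00414%, 0.00482% and 0.00547% of the counts in libraries 2, 7 and 8 and 0.0188% to 0.0271% in the other 5. Its CV was 16.8% without those libraries.

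Next came miR-335-5p, in an intron of the imprinted gene Mest, at 52.2%, miR-151-3p at 52.0%, miR-135a-5p at 51.6%, miR-30e-3p at 51.3%, miR-30a-3p at 50.4%, miR-107-3p at 50.3%, miR-384-5p at 49.9%, miR-137-3p at 49.6% and miR-16-5p at 49.4%. For miR-151-3p the share was 0.456%, 0.491% and 0.458% in libraries 2, 7 and 8 and 0.163% to 0.197% in the others, and its CV was 7.504% without them. Among the 9 other highly variable miRNAs the CV without them ran from 16.8% (miR-369-3p) to 40.2% (miR-135a-5p). miR-129-5p, at rank 17 with a CV of 49.4%, held 1.92%, 1.95% and 1.79% in libraries 2, 7 and 8 and 0.634% to 0.978% in the others.

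The same 3 libraries were at the ends of many miRNAs. Libraries 2, 7 and 8 were the 3 highest for 48 of the 171 miRNAs and the 3 lowest for 59, out of 56 possible sets of 3, and the next most frequent sets were the 3 highest for 19 and the 3 lowest for 26. Along component 1, miR-151-3p, miR-129-5p, miR-30a-3p, miR-30e-3p and miR-423-3p had the highest loadings and miR-369-3p, miR-335-5p, miR-107-3p, miR-16-5p and miR-137-3p the lowest. Base composition moved with the loading: across 151 miRNAs with a sequence, Pearson r with the share of G and C was 0.45 and Spearman rho 0.43, a description across miRNAs that share libraries and are not replicates. Positive loadings were found in 7 of 35 miRNAs under 40% GC, in 29 of 60 from 40% to 50%, in 25 of 40 from 50% to 60% and in 11 of 16 above. The ends overlap in base composition. G and C make up 45.5% of miR-30e-3p, 50% of miR-30a-3p, 57.1% of miR-129-5p and 65.2% of miR-423-3p at the high end, and 23.8% of miR-369-3p, 30.4% of miR-335-5p, 34.8% of miR-137-3p, 45.5% of miR-16-5p and 47.8% of miR-107-3p at the low end. The sequences lowest and highest in GC among these, with miR-335-5p, are shown with the seed in capitals. The part of base composition in the split was not tested.
miR-369-3p: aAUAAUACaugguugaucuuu
miR-335-5p: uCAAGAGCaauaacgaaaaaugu
miR-423-3p: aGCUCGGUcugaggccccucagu

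**Figure D5:**
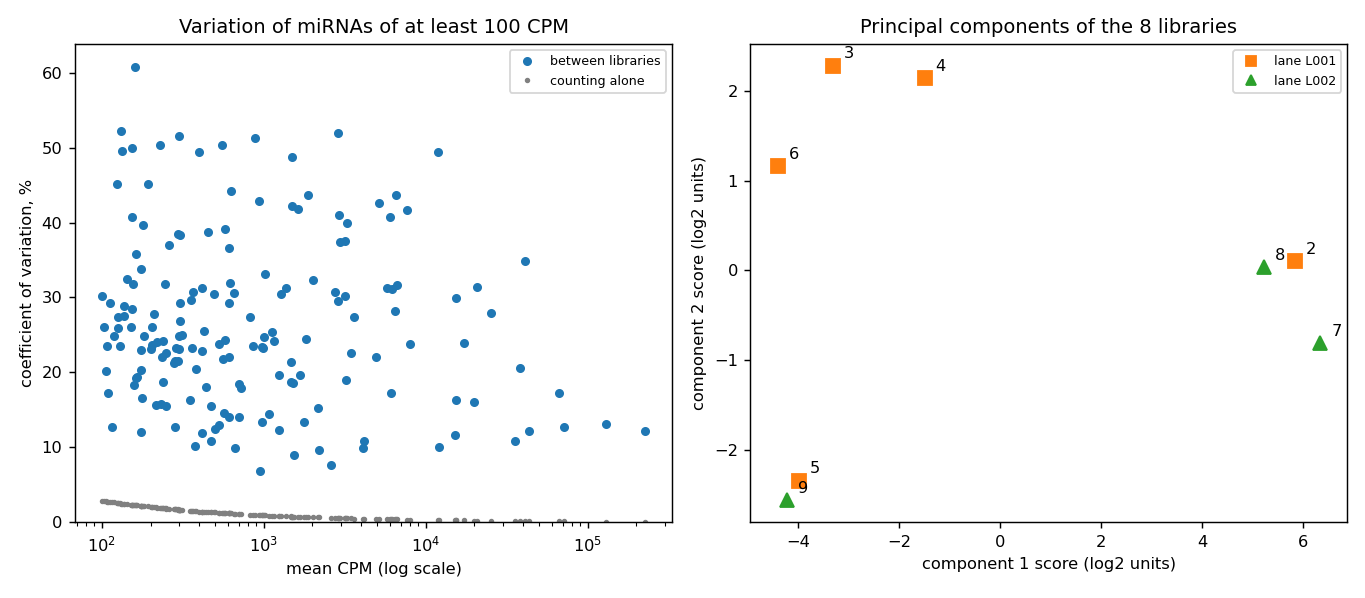
Left, coefficient of variation (%) of each miRNA's share over 8 libraries against its mean CPM (log axis) for 171 miRNAs, with the value that counting alone gives. Right, scores of the 8 libraries on components 1 and 2 by lane. All miRNAs lie above counting error, which reaches 2.84%, and libraries 2, 7 and 8 lie apart at 5.22 to 6.34 on component 1.

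Lanes were compared directly. Between lane L002 (libraries 7 to 9) and lane L001 (libraries 2 to 6), edgeR's quasi-likelihood test found 0 of 588 miRNAs (0.0%) at an adjusted p under 0.05, with 25 at an unadjusted p under 0.05 and a smallest adjusted p of 0.559. limma voom found 0, with 33 unadjusted, and DESeq2 found 1, miR-7044-3p (adjusted p = 0.0360). That miRNA had 0.329 to 1.28 CPM in lane L001 and 2.53 to 3.95 CPM in lane L002, without overlap. Leaving out 1 library moved the number at an unadjusted p under 0.05 from 25 to 100 without library 2, 121 without library 9, 16 without library 5, 11 without library 7, 9 without library 3, 6 without library 6 and 5 without library 4 or 8, with 0 passing adjustment each time. In the edgeR test, the smallest unadjusted p values after it among miRNAs higher in lane L002 were for miR-5100 and miR-490-5p, and those among miRNAs lower there were for miR-7a-1-3p, miR-466c-5p and miR-142a-3p, all with an adjusted p of 0.803. A p that misses the threshold does not show that the lanes were alike.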

How the data were processed

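Small RNA of dissected CA1 was sequenced as 50 bp single end reads on an Illumina HiSeq2000 from TruSeq Small RNA libraries, per the labels' protocols. The authors deposited raw read counts per mature miRNA and a table of normalized log2 values for fewer miRNAs. FastQC 0.11.5 and mm10 stand in the submitters' processing notes. Not given in the sources used here: aligner, counter, treatment of several matches and normalization. The members and lists were chosen with earlier results of these data known.

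Entries with identical counts in all libraries and at least 10 reads were joined. A share is a miRNA's percent of the library's counts, and CPM is counts per 1000000 counts. Wild type vehicle libraries under 1 M (1000000) counts were left out. Seeds (bases 2 to 8), hairpins and coordinates come from RefSeq (GRCm38.p6); a locus listed by mature sequences only was placed by these. Hairpins on 1 strand within 10 kb of the next formed a cluster. Hairpins sharing a mature miRNA were joined for arms, and 6 units with an incomplete pair of arms were left out. Components were taken from log2 CPM (TMM factors, pseudocount 0.5). Arms and lanes were tested with edgeR 4.0.16 (filterByExpr, minimum count 10, and TMM for lanes); limma 3.58.1 and DESeq2 1.42.0 were alternatives, all in R 4.3.3. The scripts were tested on simulated counts. Samples of 9.12 to 17.6 M counts make counting error small; intervals and floors cover counting error only, as reads carry no molecular identifiers.

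Named were the 5 marker miRNAs, the 20 most abundant, the 10 leading families and clusters, hairpins at the ends of the 5p share, nearest equality or with the largest SD (5 each), the 5 lowest and 10 highest CVs, the lane miRNAs of smallest p (3 higher and 3 lower) and the marker lists. Other names were chosen after their values were seen. Alternatives were TMM and RLE scaling, pooled counts, entries kept apart, all 9 libraries, each library left out, other detection limits, seeds of bases 2 to 7, 50 kb clusters, miRNAs of several hairpins left out, other arm and lane tests and filters, and, added after seeing the data, libraries 2, 7 and 8 left out together and arms with at least 1 count per library. Module tables of the authors were not used.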

Additional observations from a re-analysis of the deposited data

Results flagged for a closer look

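In 4 of 99 sets of 8 library values, the highest library lay far from the nearest other, by the ratio of gap to range (critical value 0.526); chance gives about 1 in 20. The share of let-7c-5p was 4.43% in library 9 and 3.17% to 3.74% in the other 7. miR-449a-5p, listed for ependyma, had 2.30 CPM in library 5 and 0 to 0.844 CPM in the others. miR-96-5p, of the miR-183 cluster, had 11.3 CPM in library 4 and 1.52 to 5.004 CPM in the others. miR-295-3p, a stem cell miRNA, had 0.219 CPM in library 5, from 2 counts, and no read in the others.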

How the results depend on the processing

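No paired analysis was possible because the study's groups were not compared here and the lanes share no replicate number. Leaving out each library in turn gave 53.4% to 54.1% for the 5 most abundant miRNAs (53.8% with all 8), 79.3% to 79.7% for the 10 leading families, 39.97% to 40.3% for clusters of 2 or more hairpins, 4.93% to 5.52% for the cluster of Mir127, 132 to 136 hairpins with the 5p and 125 to 129 with the 3p arm higher, a median CV of 24% to 25.7%, and 0 lane calls. Adding library 1 gave 50.5% for the 5 most abundant miRNAs, 425 miRNAs with a read in every library, 838.8 detected per library and a median CV of 36.4%; depth then passed with the number detected (r = 0.996, adjusted exact permutation p = 5.79e-04, n = 9) and with the shares of miR-9-5p (r = 0.92), miR-99a-5p (0.88), miR-26a-5p (0.90) and miR-127-3p (−0.95), these shares with adjusted exact permutation p from 0.0240 to 0.0452 over all 9, and r with miR-128-3p reversed to 0.72 (−0.58 with 8). Without the 2 libraries farthest from the median depth, r with the number detected was 0.76, and r reversed to −0.031 for the number at equal depth (0.63 with 8) and −0.18 for miR-99a-5p (0.34 with 8), none of the reversed values passing. Stricter limits gave 293 (10 CPM) and 148 (100 CPM) miRNAs in every library, instead of 649 with a read. Clusters of 2 or more hairpins held 45.3% at 50 kb and 21.7% with miRNAs of several hairpins left out. Without libraries 2, 7 and 8 the median CV was 15.4%, and the log2 arm ratio of miR-380 reversed to −0.26 (0.23 with 8), neither passing. DESeq2 called 1 miRNA between lanes. Per miRNA, the first bases were 24.4% A, 21.5% C, 10.9% G and 43.1% U. With no filter on low counts, 564 hairpins were tested and 187 and 167 called. The authors' deposited log2 values had a median SD of 0.31, beside 0.36 for log2 CPM. In those values miR-9-5p stood above miR-128-3p in all 8 libraries, and the order below changed too. The arms of miR-30e, miR-335 and miR-376b, near equal by counts, lay far apart in those values. Library 8 also did not stand at 1 end with libraries 2 and 7 there for miR-127-3p, miR-129-5p, miR-124-3p or the arms of miR-708 and miR-369. The cause of these changes was not tested. Depth limits the lesser arms and miRNAs under 1 CPM.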
